A study of Homo sapiens with 12 samples.

Results

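The 29 genes described here encode enzymes of cholesterol synthesis, enzymes of fatty acid synthesis and modification, and the factors that control both. They were chosen by name and matched by symbol to 29 of the 58051 genes counted in each library. By role they fall into 5 genes from acetyl-CoA to isoprenoids (ACAT2, HMGCS1, MVK, MVD, IDI1), 11 genes of the squalene and sterol steps (FDFT1, SQLE, LSS, CYP51A1, TM7SF2, MSMO1, NSDHL, HSD17B7, EBP, SC5D, DHCR7), 4 genes of regulation and sterol transport (SREBF1, SREBF2, INSIG1, STARD4) and 9 genes of fatty acid synthesis and modification (ACLY, ACSS2, ACACA, FASN, ELOVL6, SCD, FADS1, FADS2, LPIN1).

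RNA was sequenced from 2 head and neck squamous cell carcinoma lines, FaDu from the hypopharynx and Cal27 from the tongue, each labelled wild type. Each line was studied as parental cells, as afatinib-resistant cells (AfaR) and as erlotinib-resistant cells (ErlR), with 2 biological replicate libraries in each of the 6 groups. Erlotinib inhibits the kinase of EGFR, and afatinib irreversibly inhibits EGFR and related ERBB kinases. Each resistant model is a single population of its line, selected by stepwise exposure to its drug, so a group compares 1 selected population with its parent, and the final selecting doses of the 2 drugs differed. FaDu was grown in EMEM and Cal27 in DMEM, both with serum, so line and medium cannot be told apart. Libraries held 16334937 to 23399259 counts in genes, and each of the 29 genes had at least 37 counts in every library. The spans of 18 of the 29 genes overlap a gene on the other strand, FADS1 and FADS2 each other, and the strand setting of the counting is not given in the sources used here, so reads of such pairs may not be separated.

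In textbook biology, the proteins made from SREBF1 and SREBF2 (SREBP-1 and SREBP-2) are held in the endoplasmic reticulum when sterols are plentiful, by SCAP and the INSIG proteins. When sterols fall they are carried to the Golgi, cut, and enter the nucleus, where SREBP-2 chiefly raises cholesterol synthesis genes and SREBP-1 chiefly raises fatty acid synthesis genes. INSIG1 and STARD4, a sterol carrier, are themselves targets, and growth factor signaling is known to feed into this system in tumor cells.

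SREBPs bind sterol regulatory elements, often beside CCAAT boxes bound by NF-Y, and E-boxes. RefSeq promoter windows on GRCh38, from 250 bases before to 50 bases after a gene's start, were found for 25 of the 29 genes. A sterol regulatory element spelled TCACNCCAC (either strand) was present in the window of 1 of these 25 genes, SREBF2, against 1.39% of all 27305 genes with a window. CCAAT (either strand) was present in 20 of 25, which is 80% against 39.7% of all genes. The E-box CACGTG, whose letters read the same on both strands, was present in 3 of 25 (LSS, SC5D and INSIG1), 12% against 8.77% of all genes. None of the 3 motifs contains another. These matches are letters in a window and not measured binding. The stretches below lie before the annotated span of each gene, 5′ to 3′ on the gene's strand. SREBF2 (chr22:41832855-41833078, plus strand) is shown because it alone of the 25 genes held a TCACNCCAC match, in capitals. The match begins 133 bases before the RefSeq start, and other spellings of the element were not searched. In STARD4 (chr5:111512591-111512785, minus), HMGCS1 (chr5:43313513-43313662, minus) and MVD (chr16:88663162-88663341, minus) the capitals mark CCAAT or its reverse complement. These 3 were picked after their values were seen, as the genes of largest mean change whose stretch before the annotated span was long enough to print and held the box. The SREBF2 stretch also lies within an exon of the antisense RNA gene SREBF2-AS1, and the MVD stretch touches the first exon of the antisense RNA gene SNAI3-AS1.
SREBF2: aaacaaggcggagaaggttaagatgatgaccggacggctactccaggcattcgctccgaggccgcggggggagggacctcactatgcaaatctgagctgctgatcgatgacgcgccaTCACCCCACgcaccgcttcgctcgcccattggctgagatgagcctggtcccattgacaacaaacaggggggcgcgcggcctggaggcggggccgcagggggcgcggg
STARD4: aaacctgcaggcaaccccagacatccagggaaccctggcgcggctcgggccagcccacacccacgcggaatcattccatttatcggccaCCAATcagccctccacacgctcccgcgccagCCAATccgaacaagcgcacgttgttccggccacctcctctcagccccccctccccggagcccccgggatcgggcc
HMGCS1: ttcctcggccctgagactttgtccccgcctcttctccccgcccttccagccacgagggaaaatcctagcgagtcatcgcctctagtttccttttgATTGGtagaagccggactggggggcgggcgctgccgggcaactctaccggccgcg
MVD: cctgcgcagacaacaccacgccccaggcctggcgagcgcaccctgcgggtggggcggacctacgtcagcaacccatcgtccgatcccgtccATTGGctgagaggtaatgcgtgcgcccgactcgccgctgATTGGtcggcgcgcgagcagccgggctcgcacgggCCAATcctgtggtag

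Levels are given as CPM, counts scaled to a common library size after TMM scaling of all 12 libraries, and between genes only as CPM per kilobase of counted exon (RPKM). In parental FaDu cells the highest RPKM belonged to FASN, the fatty acid synthase, at 224.2 ± 14.9 (SD, n = 2), followed by SCD, which makes monounsaturated fatty acids, at 152 ± 6.29, and ACLY, which makes cytosolic acetyl-CoA from citrate, at 75.2 ± 4.42. In parental Cal27 cells the order of the first 3 was SCD at 302 ± 55.0, DHCR7, the last enzyme of one branch of cholesterol synthesis, at 125 ± 1.09, and FASN at 120.4 ± 3.95. DHCR7 and FASN in parental Cal27 differed by little more than their spread. TM7SF2, a sterol reductase, was the lowest in parental FaDu at 0.972 ± 0.318 RPKM, and the desaturase FADS2 was the lowest in parental Cal27 at 1.75 ± 0.125 RPKM.

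**Figure D1:**
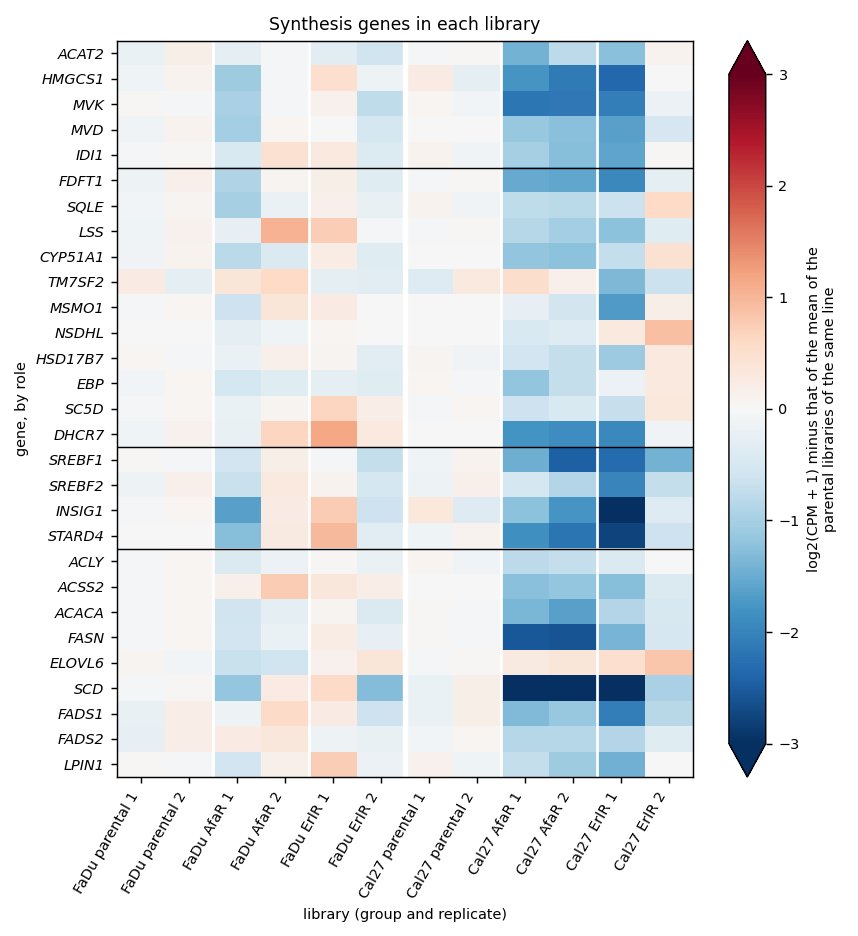
Each of the 29 genes (rows, in the 4 role groups divided by black lines) in each of the 12 libraries (columns), as log2(CPM + 1) minus the value of the parental mean of the same line. Blue is lower and red is higher, and the scale ends at 3 in either direction. Both Cal27 AfaR libraries and replicate 1 of Cal27 ErlR are blue in most rows, and replicate 1 and replicate 2 differ within FaDu AfaR, FaDu ErlR and Cal27 ErlR.

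In Cal27 AfaR cells, most of the synthesis genes were lower than in parental Cal27 cells. Of the 29 genes, 18 fell and 0 rose at an adjusted p under 0.05 in edgeR's quasi-likelihood test (no gene rose in DESeq2 either, and 0 rose at an unadjusted p under 0.05), where 18.2% of all genes tested fell and 19.5% rose. The median log2 fold change was -1.15, against 0.00 over all genes tested. That fit also held the Cal27 ErlR libraries. With the AfaR and parental libraries alone, 26 genes fell and 0 rose, where 2814 of 15021 genes tested fell. In 27 of the 29 genes both AfaR libraries lay below both parental libraries, which held for 36% of all genes. The exceptions were TM7SF2 and ELOVL6.

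The largest change was in SCD, which measured 1414 and 1831 CPM in the parental libraries and 200.4 and 125 CPM in Cal27 AfaR. Both resistant libraries were far below both parental ones, and the log2 fold change was -3.31 ± 0.69 (SE), a 9.9-fold fall with an edgeR adjusted p of 0.00502. FASN was at 1154 and 1101 CPM in parental and at 192 and 187 CPM in AfaR cells, which is a log2 fold change of -2.57 ± 0.25 with an edgeR adjusted p of 7.75e-05. Its replicates were close in both groups, so the gap between groups was many times the spread. MVK, the mevalonate kinase, was at 51.4 and 46.6 CPM in parental and at 10.2 and 10.3 CPM in AfaR cells, for a log2 fold change of -2.26 ± 0.48 with an edgeR adjusted p of 0.00576. Without AfaR replicate 2 the edgeR adjusted p of SCD was 0.0555, and without AfaR replicate 1 that of MVK was 0.0645, with log2 fold changes of -3.00 and -2.24.

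The falls ran through all 4 role groups. From acetyl-CoA to isoprenoids, 4 of 5 genes fell, with a median log2 fold change of -1.21. HMGCS1, the HMG-CoA synthase, fell by 1.95 on the log2 scale, and MVD, the decarboxylase that makes isopentenyl diphosphate, fell by 1.21. IDI1, its isomerase, was at -1.15 with an edgeR adjusted p of 0.0503, just outside the threshold. Of the 11 squalene and sterol genes 5 fell. These were DHCR7 (-1.83), FDFT1 (-1.55), the squalene synthase, CYP51A1 (-1.25), the lanosterol demethylase, LSS (-0.94), the lanosterol synthase, and EBP (-0.94), a sterol isomerase. Among the others SQLE, the squalene epoxidase, measured -0.79, HSD17B7 -0.71, SC5D -0.56, NSDHL -0.43 and MSMO1 -0.39, none of which passed, and TM7SF2 measured 0.38.

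Among the regulators, SREBF1 fell by 1.89 on the log2 scale, from 290.4 and 342 CPM to 113 and 56.9 CPM. STARD4 fell by 2.07. SREBF2 measured -0.69 ± 0.33 and INSIG1 -1.50 ± 0.72, and neither passed, although all 4 genes were lower in both AfaR libraries than in both parental libraries. Of the 9 fatty acid genes 7 fell. Besides SCD and FASN these were ACACA, the acetyl-CoA carboxylase that commits carbon to fatty acids (-1.51), FADS1 (-1.24) and FADS2 (-0.91), the delta-5 and delta-6 desaturases, ACSS2, which makes acetyl-CoA from acetate (-1.23), and ACLY (-0.74). LPIN1, a phosphatidate phosphatase, measured -0.89 and did not pass. ELOVL6, an elongase of long-chain fatty acids, went the other way, with 44.2 and 47.0 CPM in parental and 55.2 and 59.4 CPM in AfaR cells, for a log2 fold change of 0.33 that did not pass.

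These falls came with a change in epithelial markers. Of 7 squamous epithelial markers 6 fell in Cal27 AfaR (KRT5, KRT14, TP63, SFN, CDH1 and EPCAM), and their summed level was 877 to 975 CPM against 3829 to 4896 CPM in parental cells. Of 4 fibroblast markers COL1A1 and PDGFRB rose, and the summed level was 283 to 289 CPM against 28.8 to 39.8 CPM. Most of that sum was COL1A1, at 265.7 and 273.1 CPM in AfaR and 25.4 and 35.5 CPM in parental cells. COL1A2 was at 4.16 and 4.06 CPM in AfaR and did not pass, and DCN was at 0.0 and 0.116 CPM. The endothelial markers summed to 30.1 to 37.4 CPM against 31.7 to 32.7 CPM. Of 4 adipocyte and hepatocyte markers, none reached a mean of 1 CPM in any group, and the leukocyte markers summed to 10.6 to 11.4 CPM in Cal27 AfaR against 9.61 to 14.8 CPM in parental cells, most of it CD14 (8.47 to 9.67 against 6.93 to 11.6 CPM), with PTPRC at 1.73 to 2.09 CPM in AfaR and CD3E at 0. The part of the marker change in the fall of the synthesis genes was not tested. Whether fewer cells with a transcript or less of it per cell underlies any of these levels cannot be told apart in bulk RNA. Leaving out 1 AfaR library left 5 (without replicate 1, 9.76% of all genes) or 7 (without replicate 2, 12.1% of all genes) genes lower. FASN, SREBF1, ACACA and ACSS2 were among the genes that passed both times, and the median over the 29 genes stayed at -1.15 and -1.18.

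**Figure D2:**
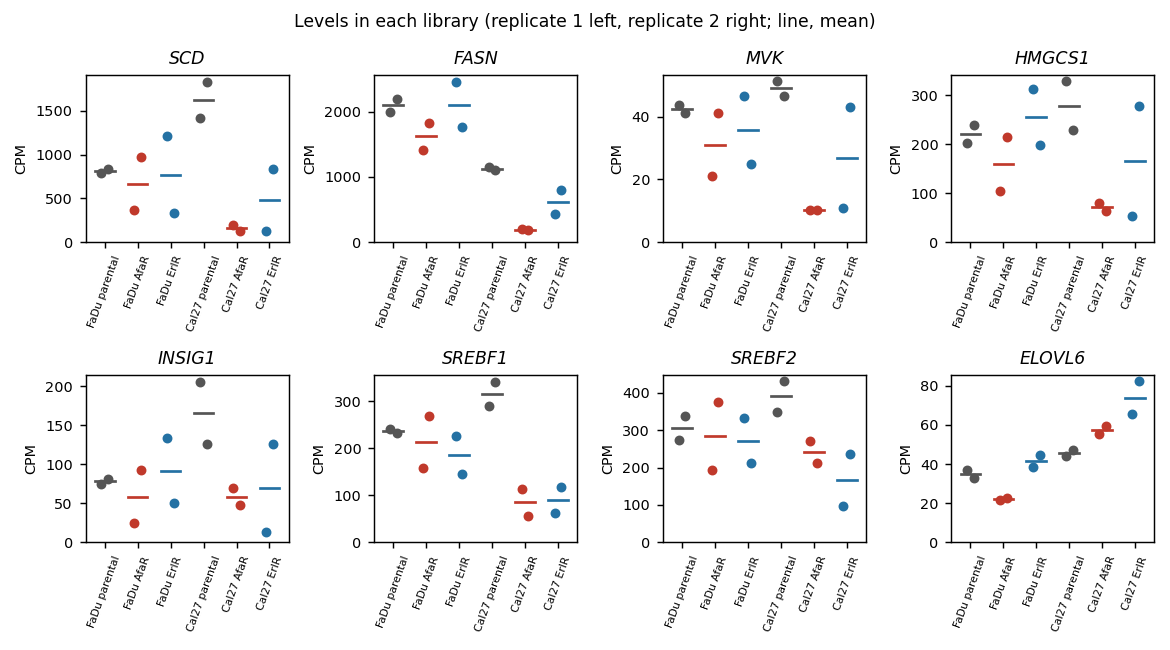
CPM (vertical axes, each starting at 0) of 8 synthesis genes in the 6 groups, with 1 point per library and a line at the mean of 2. In Cal27 AfaR the SCD, FASN, MVK and HMGCS1 points lie together and below parental, whereas the 2 Cal27 ErlR points lie far apart for SCD, MVK, HMGCS1 and INSIG1, and ELOVL6 is lower in both FaDu AfaR libraries.

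In Cal27 ErlR cells, 10 of the 29 genes fell and 2 rose against parental Cal27, where 15.3% of all genes tested fell and 12.3% rose. The median log2 fold change was -0.76, against -0.03 over all genes. The 2 replicates did not agree on the size of this difference. In replicate 1 the median gene was 1.38 below the parental mean on the log2(CPM + 1) scale, and in replicate 2 it was 0.18 below. Both ErlR libraries lay below both parental libraries for 15 of the 29 genes, against 33.4% of all genes tested.

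The SREBP genes and the desaturase FADS1 had the largest falls that passed. SREBF1 was at 290.4 and 342 CPM in parental and 63.1 and 118 CPM in ErlR cells, a log2 fold change of -1.82 ± 0.34 with an edgeR adjusted p of 0.00477. SREBF2 was at 349.7 and 432 CPM in parental and 97.8 and 237 CPM in ErlR cells, a log2 fold change of -1.25 ± 0.34 with an edgeR adjusted p of 0.0235. DESeq2 gave SREBF2 an adjusted p of 0.0562, and without parental replicate 2 edgeR gave 0.0622. FADS1 was at 120.4 and 154 CPM in parental and 31.9 and 76.3 CPM in ErlR cells, a log2 fold change of -1.37 ± 0.33 with an edgeR adjusted p of 0.0137. For all 3 genes both resistant libraries lay below both parental ones. SCD (-1.79), STARD4 (-1.38) and INSIG1 (-1.26) had log2 fold changes in the same range and did not pass.

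The other genes that fell were TM7SF2 (-1.10), MVD (-1.0), FASN (-0.91), ACSS2 (-0.83), LSS (-0.76), ACACA (-0.69) and FADS2 (-0.66). Thus 5 of the 9 fatty acid genes fell and 2 of the 11 squalene and sterol genes. So did 1 of the 5 genes from acetyl-CoA to isoprenoids and 2 of the 4 genes of regulation and sterol transport. Of all genes tested, 15.3% fell. The median log2 fold changes of these groups were -0.69, -0.28, -0.77 and -1.32 in that order, so the counts do not rank the sizes of the falls. The genes that rose were ELOVL6 and NSDHL, which helps to remove methyl groups from sterols. ELOVL6 rose from 44.2 and 47.0 CPM to 65.3 and 82.6 CPM (log2 fold change 0.67 ± 0.15, edgeR adjusted p 0.00951). NSDHL rose from 48.6 and 49.1 CPM to 60.4 and 91.6 CPM (log2 fold change 0.61 ± 0.19, edgeR adjusted p 0.0363), and its call was lost without ErlR replicate 2 (0.31) and without either parental library (0.62 and 0.63).

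The 2 Cal27 ErlR libraries were further apart than those of any other group in these genes. INSIG1, which retains SREBPs in the endoplasmic reticulum, was at 13.2 CPM in replicate 1 and 127 CPM in replicate 2. SCD was at 124 and 832 CPM, and HMGCS1 at 53.7 and 278 CPM. For INSIG1, SCD and HMGCS1, replicate 1 was below both parental libraries, and replicate 2 was within or below the parental range. Without replicate 2, 25 of the 29 genes were lower in ErlR (12.5% of all genes) and the median was -1.47. Without replicate 1, 4 genes were lower (8.34% of all genes) and the median was -0.21. Those lower genes were SREBF1 (-1.43), SCD (-0.98), FADS1 (-0.87) and SREBF2 (-0.74), and other genes of the 29 were higher in that fit. Leaving out parental replicate 2 also reduced the genes that fell to 4 (8.27% of all genes). The markers of squamous epithelium summed to 4656 to 4835 CPM in the ErlR libraries, within the parental range, with KRT14, KRT17 and CDH1 lower and TP63 higher. The fibroblast markers summed to 4.22 to 9.59 CPM against 28.8 to 39.8 CPM. Most of this was COL1A1, at 3.58 and 8.07 CPM in ErlR and 25.4 and 35.5 CPM in parental cells. The endothelial markers summed to 2.49 to 6.05 CPM against 31.7 to 32.7 CPM. The endothelial fall was in CDH5, at 30.3 and 30.7 CPM in parental and 1.09 and 4.16 CPM in ErlR cells. PECAM1 was at 1.22 and 1.40 CPM in parental and 1.41 and 1.65 CPM in ErlR cells, and VWF did not pass the filter on low counts. The part of these markers was not tested.

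In FaDu AfaR cells, 2 of the 29 genes fell and 0 rose (1 had an unadjusted p under 0.05 and rose, and DESeq2 gave 0), where 7.49% of all genes tested fell and 10.4% rose. Both AfaR libraries lay below both parental libraries for 9 genes, against 31.2% of all genes. ELOVL6 was at 36.9 and 33.0 CPM in parental and 21.6 and 22.9 CPM in AfaR cells, with no overlap, a log2 fold change of -0.67 ± 0.14 and an edgeR adjusted p of 0.0141. EBP was at 136 and 149 CPM in parental and 98.4 and 109.8 CPM in AfaR cells, for a log2 fold change of -0.47 ± 0.11 with an edgeR adjusted p of 0.0228. Both calls were lost under spike-in scaling (-0.49 and -0.29), where the median of all genes moved to 0.18, and without parental replicate 1 (-0.59 and -0.55). That of EBP was also lost without parental replicate 2 (-0.41) and without AfaR replicate 1 (-0.40), and that of ELOVL6 without AfaR replicate 2 (-0.71).

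The median of the 29 genes in FaDu AfaR was -0.23, and its sign rested on replicate 1. In AfaR replicate 1 the median gene was 0.57 below the parental mean on the log2(CPM + 1) scale, and in replicate 2 it was 0.14 above. Without replicate 1 the fitted median was 0.12, and ACSS2 (0.79) and LSS (1.04) rose. Without replicate 2 the median was -0.59, and SQLE (-1.01) and EBP (-0.55) fell. Of the squamous markers CDH1 rose and SFN fell in FaDu AfaR. The endothelial markers summed to 6.45 to 20.3 CPM against 3.25 to 5.67 CPM in parental cells, and 0 of 3 passed. Among them CDH5 was at 3.25 and 15.8 CPM in AfaR and 1.36 and 3.59 CPM in parental cells. The part of these markers was not tested. INSIG1 showed the widest gap, at 24.4 CPM in replicate 1 and 92.8 CPM in replicate 2, on either side of its parental levels of 74.9 and 81.6 CPM.

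In FaDu ErlR cells no synthesis gene passed. Of the 29, 0 rose and 0 fell by edgeR and by DESeq2, with 2 higher and 2 lower at an unadjusted p under 0.05, where 2.58% of all genes tested rose and 1.6% fell. The median was -0.06, the smallest edgeR adjusted p was 0.133, and both ErlR libraries lay below both parental libraries for 4 genes, against 25.9% of all genes. DHCR7 had the largest value, with 153 and 184 CPM in parental and 376 and 205 CPM in ErlR cells, a log2 fold change of 0.78 ± 0.31 (edgeR adjusted p 0.188). Under spike-in scaling, which moved the median of all genes to 0.49, 6 of the 29 genes were called higher, against 37.5% of all genes. The 2 FaDu ErlR libraries fell on either side of the parental level. The median gene was 0.18 above the parental mean in replicate 1 and 0.32 below in replicate 2, and SCD was at 1211 and 333 CPM against 792 and 840.0 CPM in parental cells.

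**Figure D3:**
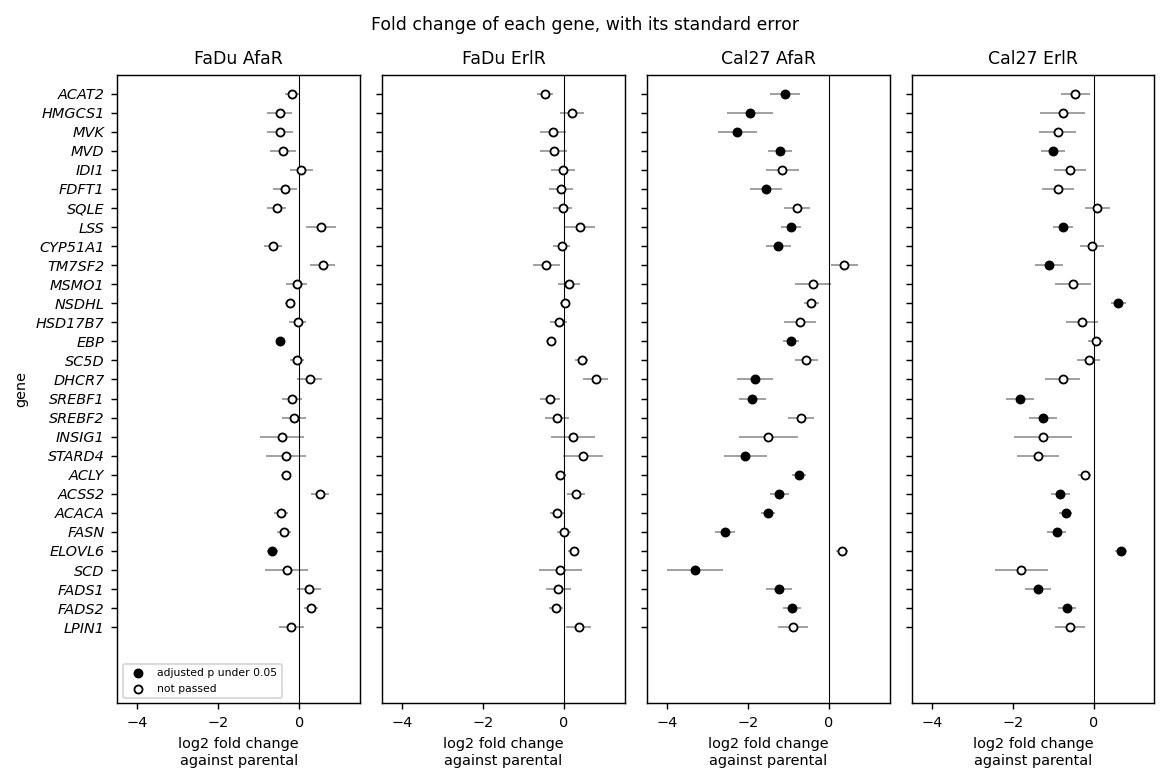
Log2 fold change of each synthesis gene (horizontal axes) in each resistant group against the parental cells of its line, with bars for the standard error. Filled points passed an adjusted p of 0.05 (18 and 12 genes in the AfaR and ErlR panels of Cal27, 2 and 0 in those of FaDu), and INSIG1 and SCD have the widest bars in each panel.

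The gap between replicates was itself shared by the synthesis genes. In FaDu AfaR all 29 genes were higher in replicate 2, with a median difference of 0.74 on the log2(CPM + 1) scale. In FaDu ErlR 28 of 29 were lower in replicate 2, with a median of -0.54, and in Cal27 ErlR all 29 were higher in replicate 2, with a median of 1.23. In parental FaDu, parental Cal27 and Cal27 AfaR the medians were 0.12, 0.02 and -0.06. Over the 10572 genes that averaged 5 CPM or more the median difference was within 0.04 of 0 in every group.

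Counted gene by gene, 18 of the 29 differed by over 1 between the Cal27 ErlR replicates, against 1.41% of all genes. The counts were 6 in FaDu AfaR (1.27% of all genes) and 3 in FaDu ErlR (1.18%). They were 0 in parental FaDu (0.454%), 0 in parental Cal27 (1.12%) and 0 in Cal27 AfaR (0.322%). INSIG1, STARD4 and SCD exceeded 1 in all 3 of the groups whose replicates split. INSIG1 differed by 1.88, -1.38 and 3.17 in FaDu AfaR, FaDu ErlR and Cal27 ErlR, SCD by 1.40, -1.86 and 2.74, and STARD4 by 1.55, -1.29 and 2.16. At the other end, ELOVL6 differed by 0.08, 0.22 and 0.33 and NSDHL by 0.15, -0.06 and 0.59. All libraries carry the same batch label. Replicates 1 and 2 held 20156109 and 23399259 gene counts in FaDu AfaR, 16408108 and 16383694 in FaDu ErlR, and 16545266 and 16541847 in Cal27 ErlR. Parental FaDu held 21867912 and 20441530 gene counts, with 5.79% and 5.82% of counts in spike-ins. The spike-in share was 5.74% and 5.64% in FaDu AfaR, and 3.95% and 4.6% in FaDu ErlR. The part of these differences between groups was not tested. Per the study's methods, resistant stocks were kept in drug and then without it for a day before experiments. The sources used here do not say whether that held for the cells sequenced, and no label gives culture density or time since feeding or drug, so the part of these was not tested.

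**Figure D4:**
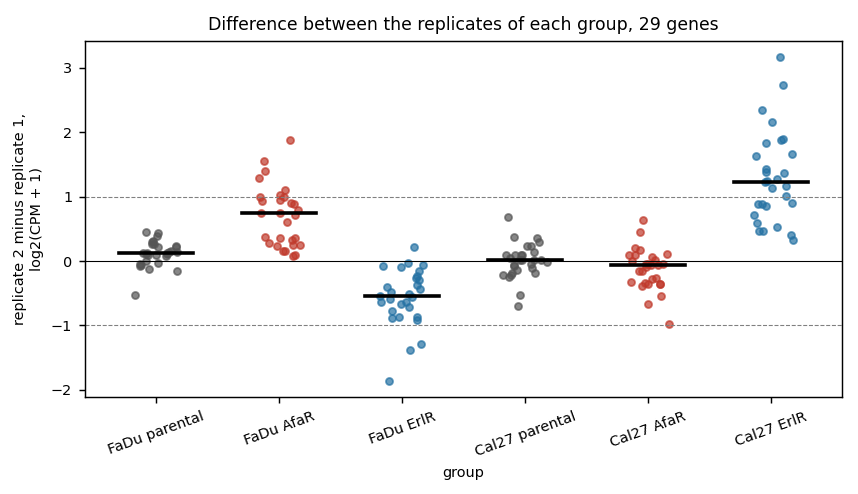
Replicate 2 minus replicate 1 in each group on the log2(CPM + 1) scale, with 1 point per synthesis gene, spread sideways for visibility, and a black line at the median. Dashed lines mark 1 and -1. The points of FaDu AfaR and Cal27 ErlR lie above 0, those of FaDu ErlR below it but for 1, and those of the other groups on both sides of 0.

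The 2 resistant models of a line were also compared with each other, which is a comparison of selected populations and not of matched doses. In Cal27, 8 of the 29 genes were lower and 1 higher in AfaR than in ErlR, where 49.6% of all genes passed in either direction. FASN was at 192 and 187 CPM in AfaR and 431 and 792 CPM in ErlR cells, a log2 fold change of -1.66 ± 0.24 with an edgeR adjusted p of 0.000512. MVK was at 10.2 and 10.3 CPM in AfaR and 10.8 and 43.0 CPM in ErlR cells (-1.37 ± 0.48, edgeR adjusted p 0.0389), and it lost its call in DESeq2 (adjusted p 0.122) and without ErlR replicate 2, where its difference was -0.08. CYP51A1 was at 14.0 and 13.5 CPM in AfaR and 19.8 and 45.4 CPM in ErlR cells (-1.22 ± 0.32, edgeR adjusted p 0.0103), and it lost its call without ErlR replicate 2, at -0.53, and without either AfaR library. TM7SF2 was the gene that was higher in AfaR, with 15.9 and 12.0 CPM against 3.58 and 6.54 CPM in ErlR cells (1.49 ± 0.35, edgeR adjusted p 0.00602), and 1.26 without AfaR replicate 1, which did not pass.

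NSDHL (-1.04), EBP (-0.99), SQLE (-0.89), ACACA (-0.82) and ACLY (-0.52) were the other genes lower in Cal27 AfaR than in ErlR. The median over the 29 genes was -0.52. Both ErlR libraries weigh on this comparison. Without ErlR replicate 1, 1 gene was higher and 24 were lower in AfaR (36.2% of all genes passed), with a median of -1.01. Without ErlR replicate 2, 6 were higher and 4 lower (41.9% of all genes), and the median turned to 0.29. Without AfaR replicate 1 or 2, 4 and 5 genes passed (31.9% and 39.3% of all genes). In FaDu, 1 gene passed, where 15.7% of all genes did. ELOVL6 was lower in AfaR (21.6 and 22.9 CPM) than in ErlR cells (38.4 and 44.9 CPM), at -0.91 ± 0.14 with an edgeR adjusted p of 0.00475. In FaDu 4 genes passed without AfaR replicate 2 (5.01% of all genes) and 3 without ErlR replicate 2 (4.45%). Spike-in scaling gave 11 genes in this comparison, all lower in AfaR, where 24.1% of all genes were lower, and the median of all genes was then -0.29.

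The test of whether the AfaR effect differed between the lines passed for 7 of the 29 genes, where 18.6% of all genes passed. Taking the effect in FaDu minus that in Cal27, FASN differed by 2.20 ± 0.34 (edgeR adjusted p 0.000808), with -0.39 in FaDu and -2.57 in Cal27. DHCR7 differed by 2.12 ± 0.64 (edgeR adjusted p 0.0363), with 0.26 and -1.83, and ACSS2 by 1.76 ± 0.35 (edgeR adjusted p 0.00442), with 0.51 and -1.23. SREBF1 (1.74), FADS2 (1.23) and ACACA (1.07) also differed in this direction. ELOVL6 differed the other way, by -0.98 ± 0.20 (edgeR adjusted p 0.00497), with -0.67 in FaDu and 0.33 in Cal27. SCD had the largest difference, 3.02 ± 1.0, and did not pass. Without FaDu AfaR replicate 1 the test passed for 11 genes (13.9% of all genes), and without FaDu parental replicate 1 or Cal27 AfaR replicate 2 for 4 (11% and 12.8%). For the ErlR effect the test passed for ACSS2 alone (1.10 ± 0.36, edgeR adjusted p 0.0479), where 18.6% of all genes passed, and 17 genes passed without Cal27 ErlR replicate 2 (15.5% of all genes), ACSS2 among them at 1.60. The call for ACSS2 was lost in each of the other 7 fits that left out a library, at 0.75 to 1.19, and that for DHCR7 in 7 of 8, at 1.63 to 2.25.

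The parental lines differed in these genes about as often as in all genes tested, when both directions are counted. In parental Cal27, 12 of the 29 were higher and 4 lower than in parental FaDu, where 28.7% of all genes tested were higher and 26.8% lower, and the median was 0.42 against 0.04 over all genes. ACSS2 was at 11.0 and 12.0 CPM in FaDu and 92.2 and 91.1 CPM in Cal27 (log2 fold change 3.00 ± 0.26, edgeR adjusted p 1.54e-06). ACAT2, which makes acetoacetyl-CoA, was at 17.8 and 23.6 CPM in FaDu and 113 and 117 CPM in Cal27 (2.47 ± 0.36, edgeR adjusted p 8.38e-05). LSS was at 39.8 and 48.1 CPM in FaDu and 178 and 190.1 CPM in Cal27 (2.07 ± 0.38, edgeR adjusted p 0.000557). In all 3 the lines were separated by several times the spread of the replicates.

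The other genes higher in parental Cal27 were MVD (1.74), TM7SF2 (1.69), DHCR7 (1.63), STARD4 (1.62), LPIN1 (1.48), FDFT1 (1.22), NSDHL (0.56), ACACA (0.53) and ELOVL6 (0.38). Lower in Cal27 were SQLE (-1.16 ± 0.32, edgeR adjusted p 0.00861), with 251 and 279.9 CPM in FaDu against 127 and 109.6 CPM, FASN (-0.90), with 2001 and 2198 against 1154 and 1101 CPM, FADS2 (-0.57) and EBP (-0.56). Spike-in scaling moved the median of all genes to 0.62, left 0 of these 4 lower by the test and turned FADS2 and EBP to 0.02 each, so the direction of FADS2 and EBP rests on the scaling, while SQLE was at -0.58 and FASN at -0.32. Without FaDu parental replicate 1 or 2, 6 and 7 genes were higher (20.8% and 22% of all genes), and without FaDu parental replicate 2 or Cal27 parental replicate 2, 2 and 1 were lower (21.3% and 20.2%). The 2 SREBP genes did not pass, with 0.42 for SREBF1 and 0.35 for SREBF2.

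**Figure D5:**
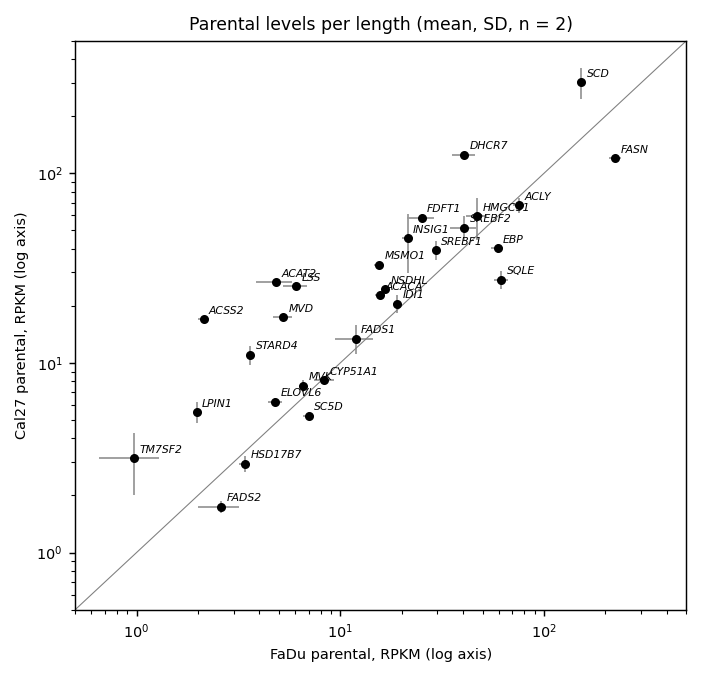
RPKM of the 29 genes in parental FaDu (horizontal) and parental Cal27 (vertical), both on log axes, with the mean and SD of 2 libraries and a gray line of equal levels. ACSS2, ACAT2 and LSS lie furthest above the line, and SQLE and FASN lie below it.

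Genes beside the synthesis pathway did not follow one direction. Over all genes tested, 19.5% rose and 18.2% fell in Cal27 AfaR, and 12.3% rose and 15.3% fell in Cal27 ErlR. In FaDu 10.4% rose and 7.49% fell in AfaR, and 2.58% rose and 1.6% fell in ErlR. Of 7 other enzymes of sterol synthesis, 1 fell and 1 rose in Cal27 AfaR. These were FDPS, the farnesyl diphosphate synthase (-1.19), and PMVK, the phosphomevalonate kinase (1.30). In Cal27 ErlR PMVK (0.81) and LBR, a sterol reductase of the nuclear membrane (1.02), rose and FDPS fell (-0.77). In FaDu AfaR LBR was the only one of the 7 to pass in edgeR (-0.38). In FaDu ErlR 0 of the 7 passed in edgeR and in DESeq2, with 1 higher and 3 lower at an unadjusted p under 0.05. The 8 genes of SREBP processing and degradation had medians of 0.24 in Cal27 AfaR and -0.07 in Cal27 ErlR. SCAP, the SREBP escort, was at 38.8 and 44.6 CPM in parental Cal27, at 77.7 and 77.7 CPM in AfaR and at 79.0 and 76.1 CPM in ErlR cells. It rose by 0.90 in AfaR and by 0.87 in ErlR on the log2 scale, with edgeR adjusted p of 0.000729 and 0.00168. The proteases that cut SREBPs, MBTPS1 (0.74) and MBTPS2 (0.68), also rose in Cal27 AfaR. MBTPS2 rose in FaDu AfaR (0.56), and INSIG2, the second INSIG gene, fell in Cal27 ErlR (-0.84).

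Of 8 genes of sterol uptake and lysosomal export, 2 fell and 2 rose in Cal27 AfaR, where 18.2% of all genes fell and 19.5% rose. SCARB1, a lipoprotein receptor, was lower in Cal27 AfaR (-1.34), FaDu AfaR (-0.51) and FaDu ErlR (-0.65). NPC2, which moves cholesterol out of lysosomes, was higher in Cal27 AfaR (0.77), FaDu AfaR (0.73) and FaDu ErlR (0.49). NPC1, its partner, rose in Cal27 AfaR (0.42) and fell in Cal27 ErlR (-0.87). In the list of 9 genes of LXR, sterol efflux and esterification, 3 rose and 1 fell in Cal27 AfaR, against the same shares of all genes. CH25H, which makes 25-hydroxycholesterol, was at 0.0583 and 0.292 CPM in parental and 7.67 and 8.47 CPM in AfaR cells. It passed the filter on low counts only through the AfaR libraries, so it had to differ once tested, and 2 genes rose without it. The cholesterol exporter ABCA1 (2.22) and the sterol hydroxylase CYP27A1 (1.30) rose with it, and LPCAT3, a phospholipid acyltransferase, fell (-0.54). In FaDu AfaR ABCA1 (1.47) and the related exporter ABCG1 (2.52) rose. In Cal27 ErlR NR1H3, which encodes the receptor LXR-alpha (-1.22), and CYP27A1 (-1.30) fell. In FaDu ErlR SOAT1, which esterifies cholesterol, fell (-0.70).

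Of 24 other genes of fatty acid synthesis, activation and storage, 23 were tested in Cal27. Of these, 8 rose and 2 fell in AfaR, where 19.5% of all genes rose and 18.2% fell. In ErlR 4 rose and 7 fell, where 12.3% of all genes rose and 15.3% fell. In Cal27 AfaR one of the 8 was MLXIPL, which encodes the carbohydrate-responsive factor ChREBP and was at 0.350 and 1.63 CPM in parental and 4.21 and 3.71 CPM in AfaR cells. It passed the filter on low counts only through the AfaR libraries, and 7 genes rose without it. ACSL3, an acyl-CoA synthetase (-1.0), and DGAT1, a triglyceride synthase (-0.54), fell. In Cal27 ErlR ACSL5, another acyl-CoA synthetase (-1.36), and DGAT2, a second triglyceride synthase (-1.30), fell, and FABP5 (1.20), ACSL4 (0.81), GPAM (0.72) and SCD5 (0.70) rose. In FaDu AfaR SCD5, a second stearoyl-CoA desaturase (1.25), and LPIN2 (1.16) rose and MCAT, a mitochondrial transferase, fell (-0.57). In FaDu ErlR 0 of 22 passed in edgeR and in DESeq2, with 3 higher and 2 lower at an unadjusted p under 0.05.

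Of 12 genes of fatty acid oxidation, 5 rose and 0 fell in Cal27 AfaR, and 6 fell and 0 rose in Cal27 ErlR. The counts were the same in DESeq2 and at an unadjusted p under 0.05. Of all genes tested, 19.5% rose and 18.2% fell in Cal27 AfaR, and 15.3% fell and 12.3% rose in Cal27 ErlR. PPARGC1A, a coactivator of oxidative metabolism, was at 0.233 and 0.583 CPM in parental Cal27 and 8.05 and 4.76 CPM in AfaR cells. It too passed the filter only through the AfaR libraries, and 4 genes rose without it. These were ETFDH, which passes electrons from fatty acid oxidation to the respiratory chain (1.46), ECH1 (0.84), CPT1A, which admits fatty acids to mitochondria (0.77), and ACADVL (0.36). In Cal27 ErlR the largest falls were in ACADS, the short-chain acyl-CoA dehydrogenase (-2.99), and PPARA, a receptor that controls oxidation genes (-1.27). PPARA was higher in FaDu AfaR (0.97) and FaDu ErlR (0.57), and ACADM, the medium-chain dehydrogenase, was lower in FaDu AfaR (-0.36).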

How the data were processed

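PolyA RNA with ERCC spike-ins from 12 libraries was sequenced on a HiSeq. Per the labels, the authors trimmed reads with Trimmomatic 0.36, aligned them to GRCh38 with STAR 2.5.2b and counted them per gene with featureCounts (Subread 1.5.2), and the deposited files hold raw counts. The authors also deposited normalized counts (a signal equal to the count divided by 1 size factor per library), used only as an alternative. Spike-ins took 3.86 to 5.82% of counts and were left out of the tests. From the counts, edgeR 4.0.16 (R 4.3.3) was run with TMM scaling, its filter on low counts, the quasi-likelihood test and Benjamini-Hochberg adjustment over all genes tested. Each line was fitted on its 6 libraries (15092 genes in FaDu, 15269 in Cal27, 3 residual degrees of freedom), and the parental and between-line comparisons on all 12 (16240 genes). A gene passed at an adjusted p under 0.05, with no fold limit, so many changes are small. DESeq2 1.42.0, other scalings and filters, and leaving out each library were alternatives. The fit was tested on simulated data.

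All 29 genes passed the filter. The members and lists were chosen with earlier results of these data known. Every member was named. Full values were given for the 3 largest rises and falls that passed in each comparison, and up to 2 genes were named from each other list. Further genes in counts of 5 or fewer, and those describing replicates, were named after their values were seen. A gene that the rule would name is not reported here. Replicates are labelled biological. The p-values measure only the spread between the 2 libraries of a group, pooled over all groups in a fit. They thus also carry the spread of groups not compared.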

Additional observations from a re-analysis of the deposited data

Results flagged for a closer look

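A difference between the lines in the effect of resistance, tested as an interaction in edgeR over all 12 libraries, singled out 8 results, given as the log2 effect in FaDu minus that in Cal27. For AfaR these were FASN (2.20), DHCR7 (2.12), ACSS2 (1.76), SREBF1 (1.74), FADS2 (1.23), ACACA (1.07) and ELOVL6 (-0.98). For ErlR it was ACSS2 (1.10). Of all genes, 18.6% passed the test for AfaR and 18.6% that for ErlR. The calls for DHCR7 in AfaR and ACSS2 in ErlR were lost in most fits that left out a library. No group had enough libraries for a test of single outlying samples, so the gap between the replicates of FaDu AfaR, FaDu ErlR and Cal27 ErlR was described and not tested.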

How the results depend on the processing

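Counts below are of the 29 genes at an adjusted p under 0.05. RLE scaling changed no count by more than 1.5 times. Nor did the replicate block in any comparison (for instance 19 genes lower in Cal27 AfaR, 12 in Cal27 ErlR and 2 in FaDu AfaR). Over all genes tested, same-numbered libraries correlated at -0.173 to 0.105 in their deviations from their group means. This gave no sign of pairing over all genes, and it cannot tell of pairing in the 29 genes alone. Crossed pairing in Cal27 AfaR, added after seeing the data, gave 19 lower. Without the filter on low counts, FaDu AfaR had 1 higher and 9 lower, FaDu ErlR 1 and 1, Cal27 ErlR 21 lower, AfaR against ErlR 13 in FaDu and 17 in Cal27, and the between-line tests 20 (AfaR) and 14 (ErlR). Under spike-in scaling FaDu AfaR had 0 lower, FaDu ErlR 6 higher, AfaR against ErlR in FaDu 11, the parental comparison 0 lower (FADS2 and EBP at 0.02 each), and the between-line tests 11 and 10. With a limit of log2 1, FaDu AfaR had 0 lower, Cal27 ErlR 0 higher and 5 lower, AfaR against ErlR 0 in FaDu and 5 in Cal27, and the parental comparison 1 lower. With the compared groups alone, Cal27 AfaR had 26 lower, Cal27 ErlR 1 higher and 6 lower, and the between-line tests 15 and 2. Upper-quartile scaling gave 1 higher in Cal27 ErlR and 2 in FaDu AfaR against ErlR, a minimum of 10 counts 2 in the latter, all 12 libraries 1 lower in FaDu AfaR, and DESeq2 2 in the ErlR between-line test. The cause of these moves was not tested.

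Leaving out 1 library gave 0 to 2 higher and 0 to 2 lower in FaDu AfaR, 5 to 18 lower in Cal27 AfaR, 1 to 3 higher and 4 to 25 lower in Cal27 ErlR, 1 to 4 in FaDu AfaR against ErlR, 4 to 25 in Cal27 AfaR against ErlR, 6 to 8 higher and 1 to 4 lower in the parental comparison, and 4 to 11 (AfaR) and 0 to 17 (ErlR) between the lines. Where a group keeps 1 library, it is assumed to vary like the other groups. The median log2 ratio of mean levels was within 1 SD of the main value with the authors' normalized counts in all 4 resistant groups. That SD is between the medians of the 2 resistant replicates, and is wide where they split. The authors' values are the same counts divided by 1 factor per library, so only the scaling could differ. The ratio of no synthesis gene moved by more than 0.034. With 2 libraries a group, genes whose replicates split widely, such as INSIG1 and SCD, have standard errors above 0.5, and a change of that size was not detectable in them.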
